A study of Mus musculus with 24 samples.

Results

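The 10 genes described here, whose products belong to skeletal muscle, several of them in forms of its fast fibres, were followed in mouse epididymal fat, a visceral white fat depot. They are Acta1, Pvalb, Ckm, Mylpf, Tnnt3, Tnnc2, Tnni2, Actn3, Atp2a1 and Eno3, and they were taken by symbol: every probe annotated to any of the 10 genes was used, which gave 13 of the 45281 probes on the array and 10 of the 19057 genes with a single symbol. Messenger RNA was measured on 24 Illumina BeadChip arrays of male C57BL6/J mice, with no genetic modification named in the labels. The first group, DR, was kept on 40% dietary restriction (8 arrays). The second group, Rapa, received rapamycin, an inhibitor of the mTOR complex 1 kinase, at 14 ppm (8 arrays). The third group, AL, was fed ad libitum (8 arrays). Treatments began at 2 months of age and ran for 6 months, and all samples were from animals 8 months old. The labels do not state that each sample came from an animal of its own, and p-values therefore speak only of the spread among these arrays.

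In the sarcomere, the contractile unit of striated muscle, myosin thick filaments pull on actin thin filaments that are anchored at the Z disc. Calcium released into the fibre binds troponin C on the thin filament and so permits contraction, and it is then removed by a calcium pump of the sarcoplasmic reticulum and, in fast fibres, buffered by parvalbumin. Most of these proteins come in a fast skeletal form and in slow skeletal, cardiac, smooth muscle or non-muscle forms encoded by other genes, and fat tissue holds smooth muscle cells in its vessel walls but is not built from skeletal muscle fibres.

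Promoters of muscle genes are known for E-boxes, bound by the MyoD family, for MEF2 boxes, bound by MEF2 factors, and for CArG boxes, bound by serum response factor. The 200 bases before the annotated start are shown for 4 genes: Acta1, Pvalb and Eno3, the 3 genes detected most widely, and Tnnc2, which was high on a pair of arrays. The sequences are from RefSeq on the GRCm38.p6 build, written 5′ to 3′ on the strand of the gene, and capitals mark every match to a CArG box, a MEF2 box, TATAAA or CANNTG on either strand.
Acta1, chr8:123894776-123894975, minus strand: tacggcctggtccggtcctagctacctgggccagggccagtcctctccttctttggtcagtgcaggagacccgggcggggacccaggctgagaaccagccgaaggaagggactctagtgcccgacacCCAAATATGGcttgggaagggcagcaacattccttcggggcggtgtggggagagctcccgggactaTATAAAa
Pvalb, the first of its 2 start sites, chr15:78206401-78206600, minus strand: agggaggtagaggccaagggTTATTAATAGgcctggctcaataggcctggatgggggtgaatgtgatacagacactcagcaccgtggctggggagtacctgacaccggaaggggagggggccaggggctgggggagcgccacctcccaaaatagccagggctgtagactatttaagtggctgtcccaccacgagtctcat
Tnnc2, chr2:164779735-164779934, minus strand: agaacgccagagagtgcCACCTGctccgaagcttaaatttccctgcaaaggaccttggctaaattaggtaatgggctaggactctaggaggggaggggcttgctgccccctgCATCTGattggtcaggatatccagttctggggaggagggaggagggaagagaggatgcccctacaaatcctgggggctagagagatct
Eno3, chr11:70656976-70657175, plus strand: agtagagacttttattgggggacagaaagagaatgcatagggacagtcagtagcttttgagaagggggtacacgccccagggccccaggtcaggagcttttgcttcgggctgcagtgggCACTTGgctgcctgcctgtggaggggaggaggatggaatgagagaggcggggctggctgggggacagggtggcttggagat
Acta1 carried a CArG box 73 to 64 bases before the start, and a TATAAA 7 to 2 bases before it. Pvalb carried a MEF2 box 180 to 171 bases before its first start, and its second start had 1 CANNTG and no CArG or MEF2 box. Tnnc2 carried 2 matches to CANNTG and Eno3 carried 1. No motif was found in all 4 windows. Among 32851 mouse promoter windows of the same length, 58.2% held a CANNTG, 9.96% a TATAAA, 2.29% a MEF2 box and 1.18% a CArG box. RefSeq promoters were matched for 7 of the 10 genes, with 8 start sites in all. CAGCTG, one of the forms of CANNTG, was found in the Mylpf and Atp2a1 windows and in 10.9% of all windows.

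The labels name epididymal fat as the source but liver as the tissue, so defining markers of both were read on every array. White adipocyte genes numbered 9, and 8 of them passed detection on every array, leptin (Lep) and adiponectin (Adipoq) among them. Of 6 hepatocyte genes, Alb, Fgb and Cps1 were detected on 0 arrays, Serpina1a on 2, and Apoa1 and Ttr on 8 each, where the highest log2 levels were 6.56 for Apoa1 and 6.25 for Ttr. The 75th percentile of intensity ran from 17.5 to 78.9 on DR arrays, from 15 to 106.7 on Rapa arrays and from 24.8 to 111.7 on AL arrays, with Rapa1 the dimmest and AL6 the brightest. Probes detected per array numbered 13012 to 19203. The arrays also differed in markers of the neighbouring epididymis and testis: the median log2 level of 10 such genes ran from 5.72 to 11.2 on DR arrays, from 4.7 to 11.27 on Rapa arrays and from 4.76 to 6.12 on AL arrays, and it exceeded 6 on 6 DR, 4 Rapa and 1 AL arrays. Of these 10 genes, 5 were called higher in DR than in AL, as were 511 of all 9836 tested genes. Smooth muscle genes were highest on AL6 and DR5, where the log2 of their summed level was 15.57 for DR5 and 15.59 for AL6. On the other arrays that sum did not exceed 14.66.

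Detection differed sharply between the 10 genes. A probe was taken as detected on an array where its deposited detection p was under 0.05. Acta1, the actin of skeletal muscle thin filaments, was detected on 23 of 24 arrays, as was Eno3, the muscle form of the glycolytic enzyme enolase. Rapa1, the dimmest array, was the exception for both. Pvalb, which encodes parvalbumin, was detected on 16 arrays: 0 of 8 DR, 8 of 8 Rapa and 8 of 8 AL.

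The remaining genes were detected on 12 arrays or fewer. Tnnc2, fast troponin C, was detected on 12 arrays (2 DR, 4 Rapa and 6 AL). Actn3, the alpha-actinin of fast-fibre Z discs, has 3 probes, of which 1 was detected on 11 arrays (5 DR, 4 Rapa and 2 AL) and the other 2 on 0. Mylpf, the regulatory light chain of fast myosin, has 2 probes, of which 1 was detected on 8 arrays (1 DR, 4 Rapa and 3 AL) and the other on 0. Probes of the same gene thus disagreed for both Actn3 and Mylpf. Tnni2, fast troponin I, was detected on 6 arrays (1 DR, 3 Rapa and 2 AL). Ckm, muscle creatine kinase, was detected on AL6 alone. Tnnt3, fast troponin T, and Atp2a1, the calcium pump of fast fibres, were detected on 0 arrays.

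**Figure D1:**
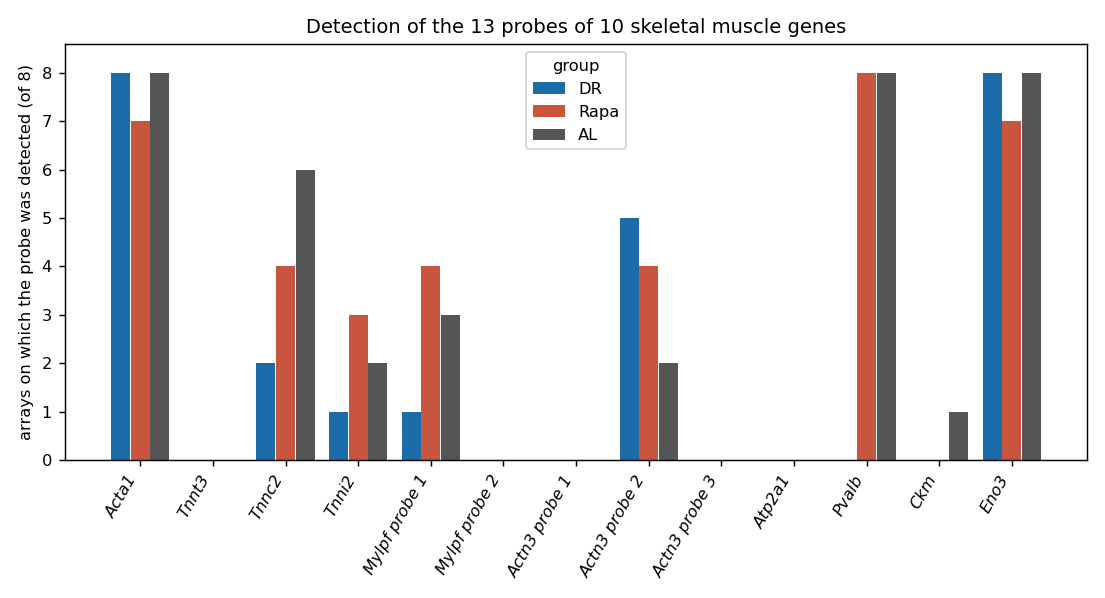
Number of arrays, of 8 in each group, on which each of the 13 probes was detected, with DR, Rapa and AL bars from left to right. Acta1 and Eno3 were detected on 23 of 24 arrays and Pvalb on every Rapa and AL array but on 0 DR arrays, while Tnnt3, Atp2a1 and 3 of the 5 probes of Mylpf and Actn3 have no bar.

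A whole skeletal muscle programme was not seen on these arrays. The chip carries 55 other sarcomere and skeletal muscle genes. No array detected 13 of them, and 18 more were found on just 1 to 3 arrays. The nebulin gene Neb, the myogenic regulators Myod1 and Myf6, and the slow troponin I gene Tnni1 were among those detected on 0 arrays. Myh4, the myosin heavy chain of the fastest fibres, was detected on 2 arrays, both AL, and Myh1 on 1 Rapa and 1 AL array. Only 4 of the 55 were detected on all 24 arrays: Des, Tpm1, Tpm3 and Myl1. The log2 of the summed level of the 55 genes ran from 12.78 to 13.21 on DR arrays, from 12.84 to 13.33 on Rapa arrays and from 13 to 13.76 on AL arrays, with the highest value on AL6. The brightest of the 55 weigh most in that sum, such as Myl1, which averaged 11.9 in DR, 11.87 in Rapa and 11.89 in AL. AL6, the brightest array, also detected 22 of the 55, the most of any array, against 9 to 15 on DR and 9 to 19 on Rapa arrays. The median log2 level of the 55 genes was 4.78 on AL6, and ran from 4.71 on AL8 to 4.93 on Rapa3. Most of the 55 were undetected on each array, so that median says little about the detected ones. The 10 genes are therefore described one by one, as skeletal muscle genes and not as a measure of muscle tissue.

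Levels were compared on a log2 scale after background correction with an offset of 16 and quantile normalization, in a single limma fit of the 24 arrays. A gene was tested where a probe of it was detected on at least 8 arrays, which 6 of the 10 genes were (Acta1, Tnnc2, Mylpf, Actn3, Pvalb and Eno3), and 9836 genes in all. Tnnt3, Tnni2, Atp2a1 and Ckm fell below that limit. A gene was called where its adjusted p, over all kept probes, was under 0.05. Against AL, DR arrays had 2 of the 6 tested genes called, both lower (Acta1 and Pvalb), in a comparison in which 11.7% of all tested genes were called and 6.5% were called lower. Against AL, Rapa arrays had 1 called, Acta1, which was lower, where 0.153% of all tested genes were called, all of them lower. Between DR and Rapa, Pvalb was called lower in DR, where 11.4% of all tested genes were called and 5.54% were called lower in DR. The median log2 change of the 6 tested genes was -0.37 for DR against AL, -0.05 for Rapa against AL and 0.13 for DR against Rapa, beside -0.01 over all tested genes in each comparison. DR and Rapa were both set against the same AL arrays.

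**Figure D2:**
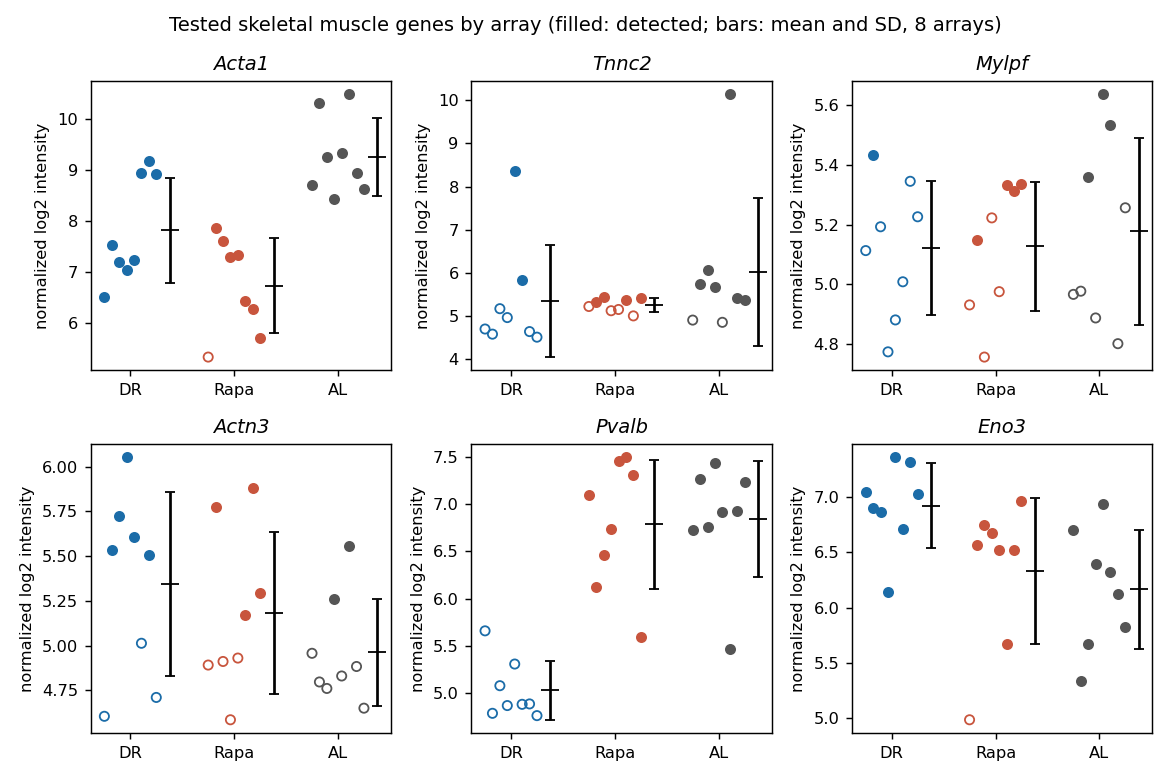
Normalized log2 intensity of the 6 tested genes on each of the 24 arrays, in the order DR, Rapa and AL, with filled points for detected and open points for undetected values, and bars for the mean and SD of 8 arrays. The Acta1 points of Rapa all lie below those of AL, the Pvalb points of DR are all open and low, and a single DR and a single AL array stand far above the rest for Tnnc2.

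Among the thin filament genes, Acta1 carried the widest difference. Its background-subtracted intensity had a lowest, median and highest value of 25.9, 183.4 and 697 on DR arrays, of 8.7, 89.2 and 321.6 on Rapa arrays, and of 217.8, 443.85 and 2674.5 on AL arrays. The normalized log2 level averaged 7.83 ± 1.03 in DR, 6.74 ± 0.93 in Rapa and 9.26 ± 0.76 in AL (SD, n = 8 each). On that scale the 8 Rapa arrays, at 5.34 to 7.88, all lay below the 8 AL arrays, at 8.43 to 10.49, and 0.0813% of all tested genes were lower in Rapa with groups that did not overlap. Of the DR arrays, 5 lay below every AL array and the other 3, at 8.93 to 9.19, lay within the AL range.

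Acta1 fell by 2.52 on the log2 scale in Rapa against AL (SE 0.42, 5.75-fold lower, adjusted p = 0.00467), and ranked 5 of 9836 tested genes by p. It fell by 1.44 in DR against AL (SE 0.42, 2.71-fold lower, adjusted p = 0.0252). DR lay 1.09 above Rapa (95% interval 0.23 to 1.95, adjusted p = 0.105), which did not pass the threshold, so the order AL, DR, Rapa is not resolved at its lower step. In bulk tissue, fewer cells that express a gene and less of its RNA per cell cannot be told apart. The arrays were also split by replicate number into 4 classes of 2 numbers each (1 and 5, 2 and 6, 3 and 7, 4 and 8). These classes were chosen after seeing the data. In every class Acta1 was lower, at -2.15, -2.16, -0.89 and -0.54 for DR against AL. For Rapa against AL it was -2.68, -3.24, -2.14 and -2.02, where groups that did not overlap could give no other sign.

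The Rapa call for Acta1 held in 24 of 24 fits that each left out 1 array, and the DR call held in 19. The DR value became -1.29 without AL2 (adjusted p = 0.0618), -1.26 without AL6 (adjusted p = 0.0569), -1.25 without DR1 (adjusted p = 0.0614), -1.35 without DR3 (adjusted p = 0.0525) and -1.32 without DR4 (adjusted p = 0.052). With median scaling in place of quantile normalization, both calls were lost while the changes were -1.73 for DR (adjusted p = 0.0634) and -2.64 for Rapa (adjusted p = 0.119). Without the 11 arrays with high epididymis and testis markers, Acta1 was -1.1 in DR (2 arrays, adjusted p = 0.436) and -2.44 in Rapa (4 arrays, adjusted p = 0.0197) against AL (7 arrays).

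The actins of other cells were measured beside it. Acta2, the actin of smooth muscle, averaged 12.39 ± 0.83 in DR, 13.04 ± 0.26 in Rapa and 13.67 ± 0.4 in AL (SD, n = 8 each). It fell by 1.28 in DR against AL (SE 0.26, adjusted p = 0.00155), and was -0.63 in Rapa against AL (adjusted p = 0.438). Actb, a cytoplasmic actin of all cells, fell by 0.47 in DR (SE 0.15, adjusted p = 0.0471) and was -0.22 in Rapa (adjusted p = 0.672). The log2 of the summed level of 10 smooth muscle genes ran from 12.72 to 15.57 on DR arrays, from 13.44 to 14.3 on Rapa arrays and from 14.06 to 15.59 on AL arrays, and all 10 were detected on at least 3 arrays. The Actb call was lost with median scaling over the kept probes (-0.4, adjusted p = 0.269), and by the authors' score neither Actb nor Acta2 was called. What smooth muscle RNA contributes to the Acta1 differences was not tested.

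Of the 3 troponin genes of the set, whose products form the fast troponin complex, Tnnc2 alone was tested. Tnnc2 intensity had a lowest, median and highest value of -12, 6.65 and 99.1 on DR arrays, of 7.5, 18.65 and 47.8 on Rapa arrays, and of 4.6, 34.3 and 2118.9 on AL arrays. Its normalized log2 level averaged 5.34 ± 1.3 in DR, 5.25 ± 0.16 in Rapa and 6.02 ± 1.72 in AL (SD, n = 8 each), and the groups overlapped. DR5, at 8.37, and AL6, at 10.14, stood far above the next values, at 5.82 in DR and 6.06 in AL. The change was -0.68 for DR against AL (95% interval -1.83 to 0.48, adjusted p = 0.524), -0.76 for Rapa against AL (95% interval -1.92 to 0.39, adjusted p = 0.69) and 0.09 for DR against Rapa (95% interval -1.07 to 1.25, adjusted p = 0.954). The values rested on AL6 and DR5: DR against AL was -0.09 without AL6 and -1.11 without DR5, Rapa against AL was -0.18 without AL6, and DR against Rapa was -0.34 without DR5. Tnnt3 did not exceed 4.74 on DR, 5.14 on Rapa or 4.8 on AL arrays and was not detected. Tnni2 had its highest level on DR1 (6.06), Rapa8 (5.71) and AL3 (5.73) within the groups. DR1 is one of the dimmer arrays, and its Tnni2 intensity was 18.8.

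The arrays on which Tnnc2 was high were those on which smooth muscle genes were high. Myh11, the smooth muscle myosin heavy chain, was at 11.88 on DR5 and 11.63 on AL6, against at most 9.04 on the other 22 arrays. Actg2, the gamma actin of visceral smooth muscle, was at 12 on DR5 and 12.91 on AL6, against at most 9.94 elsewhere. Tpm2, the beta tropomyosin of striated and smooth muscle, was at 9.52 on DR5 and 11.18 on AL6, against at most 8.26 elsewhere. All 10 smooth muscle genes were detected on DR5 and AL6, and 6 to 9 of them on each of the other arrays. DR5 and AL6 were the highest arrays for 8 of these 10 genes, among them Lmod1, which was not tested. The exceptions were Cnn1 and Synpo2, the latter at 6.14 on AL6 and 5.93 on DR5, against at most 7.73 elsewhere. The same arrays were highest for Tpm1, Tpm2 and Des, 3 of the 14 other skeletal muscle genes tested, and for 56 of all 9836 tested genes (0.569%). Ckm followed the same array only in part: it was at 5.77 on AL6, with an intensity of 81.5, but at 4.46 on DR5. The median epididymis and testis marker level was 9.92 on DR5 and 4.81 on AL6, yet the log2 of the summed level of 13 such genes was 15.31 on DR5 and 12.61 on AL6, the highest of the AL arrays. Of these 13 genes, 8 were detected on DR5 and 4 on AL6. The epididymal defensin gene Defb42 was at 13.01 on DR5 and 12.49 on AL6, against at most 13.03 on the other 22 arrays. Wfdc10 was at 13.61 on DR5 and 7.39 on AL6, against at most 14.48 elsewhere. Both of these highest values elsewhere were on Rapa8, where Tnnc2 was at 5.42. The part of smooth muscle or epididymal RNA in the Tnnc2 values was not tested.

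**Figure D3:**
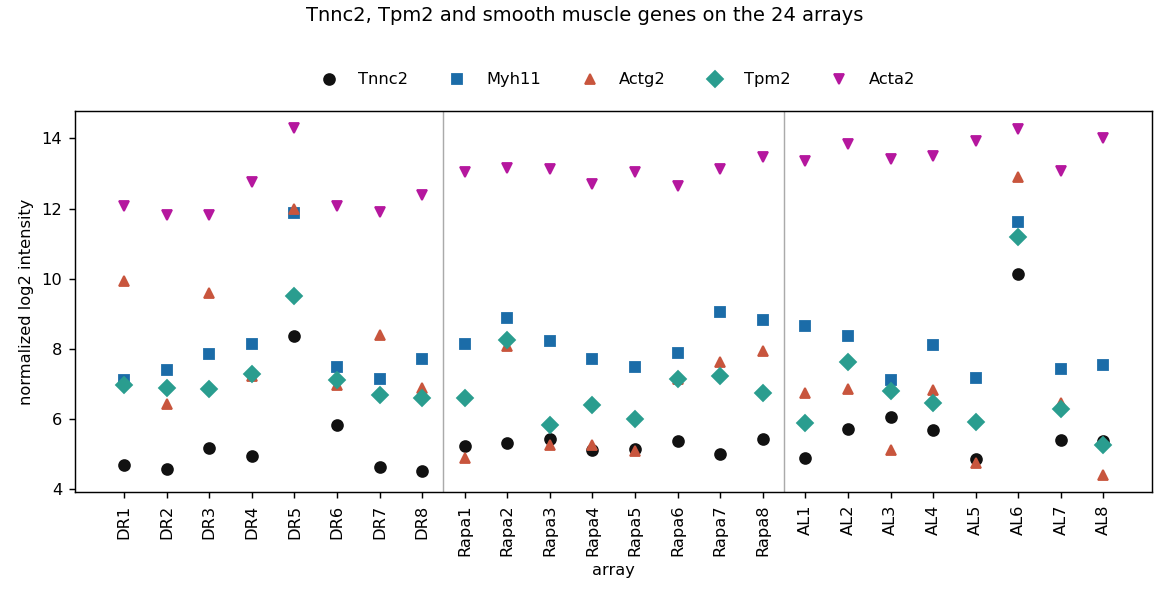
Normalized log2 intensity of Tnnc2, Tpm2 and 3 smooth muscle genes (Myh11, Actg2 and Acta2) on each of the 24 arrays, with vertical lines between DR, Rapa and AL. Tnnc2 reached 8.37 on DR5 and 10.14 on AL6, the arrays that also carried the highest Myh11, Actg2 and Tpm2, and did not exceed 6.06 elsewhere.

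The thick filament and the Z disc were each represented by a gene near the limit of detection. Mylpf averaged 5.12 ± 0.23 in DR, 5.13 ± 0.22 in Rapa and 5.18 ± 0.31 in AL (SD, n = 8 each), with overlapping groups. Its change was -0.06 for DR against AL (95% interval -0.35 to 0.24, adjusted p = 0.874) and -0.05 for Rapa against AL (95% interval -0.34 to 0.24, adjusted p = 0.946), and the sign of these small values turned under several settings. Actn3 averaged 5.34 ± 0.51 in DR, 5.18 ± 0.45 in Rapa and 4.96 ± 0.3 in AL (SD, n = 8 each), again with overlap. The Actn3 change was 0.38 for DR against AL (95% interval -0.05 to 0.82, adjusted p = 0.287) and 0.22 for Rapa against AL (95% interval -0.22 to 0.65, adjusted p = 0.784). Actn1, the alpha-actinin of non-muscle cells, fell by 0.77 in DR against AL (SE 0.24, adjusted p = 0.0336). Myl1, the essential light chain of fast myosin and thus the partner of Mylpf on the thick filament, was detected on all 24 arrays and averaged 11.9 ± 0.25 in DR, 11.87 ± 0.51 in Rapa and 11.89 ± 0.19 in AL (SD, n = 8 each). That level stood apart from Mylpf and from the fast heavy chains Myh1 and Myh4, each detected on 2 arrays. The source of the Myl1 signal was not tested.

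Of the calcium-handling genes, Pvalb separated DR from both other groups. Its intensity had a lowest, median and highest value of 5, 9.6 and 14.5 on DR arrays, of 31.6, 76.1 and 325.7 on Rapa arrays, and of 49.5, 102.35 and 252.6 on AL arrays. On this deposited scale every DR value lay below every Rapa and every AL value, as for 0.346% of all tested genes against AL and 0.183% against Rapa. After normalization the level averaged 5.03 ± 0.31 in DR, 6.79 ± 0.68 in Rapa and 6.84 ± 0.61 in AL (SD, n = 8 each). There, 7 of 8 DR arrays lay below every AL array and 7 of 8 below every Rapa array. The exception was DR1, at 5.66, which exceeded AL6, at 5.47, and Rapa8, at 5.6.

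Since Pvalb was not detected on any DR array, its level there is only bounded. By the means of these arrays it was at least 2.81-fold lower in DR than in AL and at least 2.7-fold lower in DR than in Rapa. These bounds allow for signal below detection, but not for the spread among arrays. For these bounds each DR array was given its own lowest detected signal, or the measured Pvalb value where that was higher. No test was run on the bounds. In the limma fit of the normalized values the change against AL was -1.81 (SE 0.26, 95% interval -2.35 to -1.27, adjusted p = 3.99e-05), at rank 79 of 9836 by p. Against Rapa it was -1.75 (SE 0.26, 95% interval -2.3 to -1.21, adjusted p = 5.77e-05). Rapa and AL did not differ past the threshold: the change was -0.06, with a 95% interval of -0.6 to 0.49 (adjusted p = 0.97). Both DR calls held in 24 of 24 fits that each left out 1 array. Within the 4 classes of replicate number the change against AL was -1.34, -1.53, -1.86 and -2.52, a sign that the near-complete separation left little room to alter. Without the 11 arrays with high epididymis and testis markers it was -2.02 for DR (2 arrays) against AL (7 arrays, adjusted p = 0.011) and -2.1 against Rapa (4 arrays, adjusted p = 0.00916).

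Atp2a1, the fast-fibre calcium pump, did not exceed 5.06 on DR, 4.99 on Rapa or 5 on AL arrays and was not detected. The pumps of other cells were measured on all 24 arrays. Atp2a2, the form of slow fibres and of most tissues, averaged 10.22 ± 0.5 in DR, 10.19 ± 0.26 in Rapa and 10.23 ± 0.59 in AL (SD, n = 8 each). Atp2a3, found in blood and endothelial cells among others, averaged 9.47 ± 0.26 in DR, 10.34 ± 0.46 in Rapa and 10.43 ± 0.32 in AL (SD, n = 8 each). Atp2a3 fell by 0.97 in DR against AL (SE 0.18, adjusted p = 0.000707) and by 0.88 in DR against Rapa (adjusted p = 0.00171).

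The genes of energy supply differed in detection. Ckm, which regenerates ATP from creatine phosphate in muscle, stayed below detection on 23 of 24 arrays. Eno3 had a lowest, median and highest intensity of 39.1, 82.8 and 160.6 on DR arrays, of 4.9, 69.55 and 121 on Rapa arrays, and of 34.7, 49.9 and 137.1 on AL arrays. Its normalized level averaged 6.92 ± 0.38 in DR, 6.33 ± 0.66 in Rapa and 6.16 ± 0.53 in AL (SD, n = 8 each). The groups overlapped, and 4 of 8 DR values exceeded all those of AL. The change for DR against AL was 0.76 (SE 0.26, 95% interval 0.23 to 1.28, adjusted p = 0.0575), which missed the threshold, and it passed under 4 of 12 other settings and in 5 of 24 fits that left out 1 array (without AL1, AL5, DR4, Rapa1 or Rapa8), with values of 0.54 to 0.87 there. For Rapa against AL it was 0.17 (95% interval -0.36 to 0.69, adjusted p = 0.876), and for DR against Rapa 0.59 (95% interval 0.06 to 1.11, adjusted p = 0.161). Ckb, the creatine kinase of brain and many other tissues, was -0.54 for DR against AL (adjusted p = 0.158).

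**Figure D4:**
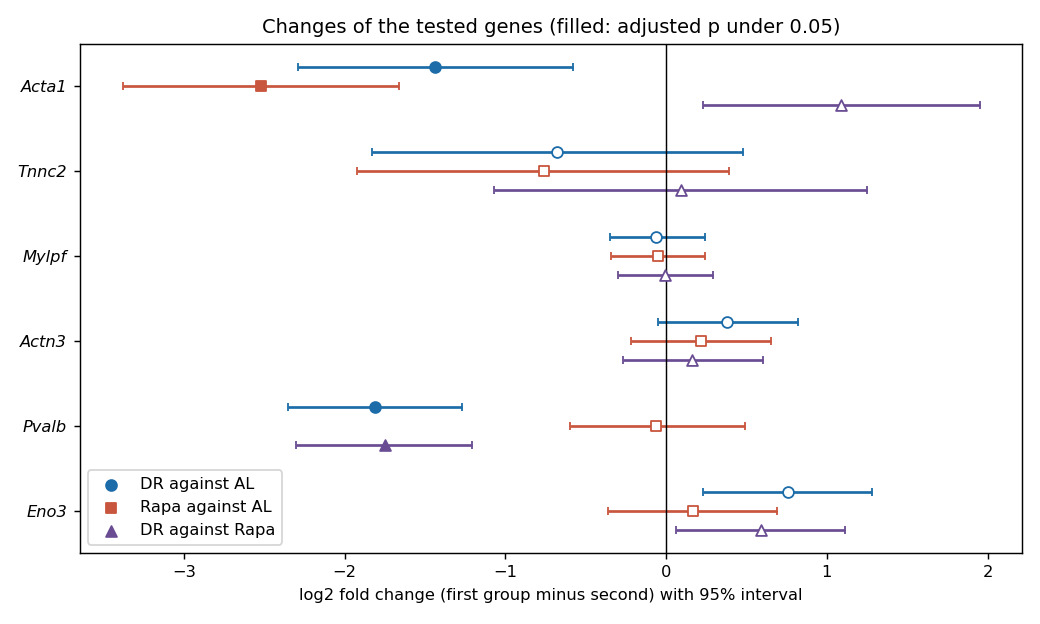
Log2 fold change of each tested gene with its 95% interval, for DR against AL, Rapa against AL and DR against Rapa, with filled marks where the adjusted p was under 0.05. Acta1 was called lower in both treated groups (-1.44 and -2.52) and Pvalb in DR against both other groups (-1.81 and -1.75), while Eno3 in DR against AL (0.76) lay on the other side of 0.

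Shared movement of the tested genes from array to array was not detectable at this number of arrays. Within each group of 8 arrays, Pearson's r between pairs of the 6 genes (15 pairs, 45 exact permutation tests) ran from -0.85 to 0.77, with 21 positive and 24 negative values. The lowest adjusted p was 0.716 for Pearson's r and 0.953 for Spearman's rho. The number of the 10 genes detected on 1 array ran from 2 to 4 in DR, from 1 to 7 in Rapa and from 3 to 8 in AL, with 1 on Rapa1, the dimmest array, and 8 on AL6, the brightest. The part of array brightness in these counts was not tested.

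Among the 55 other skeletal muscle genes, 14 were tested. In DR against AL, 1 was called higher and 2 lower, with a median change of -0.01, where 11.7% of all tested genes were called. Tnnc1, the troponin C of slow fibres and heart, rose by 0.59 (SE 0.19, adjusted p = 0.046), while Tpm3, a tropomyosin of slow fibres and non-muscle cells, fell by 0.71 (adjusted p = 0.0282) and Cmya5, a muscle scaffold protein gene, fell by 0.85 (adjusted p = 0.000992). In Rapa against AL, 0 were called in the limma fit and 2 had an unadjusted p under 0.05. In DR against Rapa, Tpm3 alone was called, at -0.75 (adjusted p = 0.021). Of 3 tested genes of slow fibres, which overlap that list, Tnnc1 and Tpm3 were the ones called. Of 8 cardiac muscle genes on the array only Myl4, an atrial light chain, was tested, and it fell by 1.13 in DR against AL (adjusted p = 0.000188) and by 1.3 in DR against Rapa (adjusted p = 3.33e-05).

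Of 13 non-muscle counterparts of the skeletal muscle genes, all tested, 3 were called lower and 0 higher in DR against AL (Actb, Actn1 and Atp2a3), with a median change of -0.43, where 6.5% of all tested genes were called lower. In Rapa against AL, 0 were called by limma and 0 had an unadjusted p under 0.05, with a median of -0.12, and in DR against Rapa 1 was called, Atp2a3. Of 8 tested smooth muscle genes, 3 were called lower in DR against AL, beside the same 6.5%, and 0 higher: Acta2, the myosin light chain kinase gene Mylk (-1.03, adjusted p = 0.0309) and Synpo2, an actin-binding protein gene (-1.32, adjusted p = 0.00142). Rapa against AL gave 0 calls among them in the limma fit, with 2 at an unadjusted p under 0.05, and DR against Rapa gave 1, Synpo2 (-1.07, adjusted p = 0.0083).

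Some markers of other cells of the depot also differed between the groups, while others of the same lists did not. Of 10 brown and beige fat genes, the uncoupling protein gene Ucp1 was detected on 0 arrays, Cidea on 23, and Cox8b, Cox7a1 and Ppargc1b on all 24. Of the 5 tested, Cidea (1.12, adjusted p = 0.00282) and Ppargc1b (1.19, adjusted p = 0.0023) were called higher in DR against AL. There, Ppargc1a (0.48), Cox8b (0.4) and Cox7a1 (-0.43) were not called, the last with the other sign. In that comparison 511 of all 9836 tested genes were called higher. Cox8b, a cytochrome c oxidase subunit gene, was called lower in Rapa against AL (-2.22, adjusted p = 1.24e-05), as were 15 of all tested genes. Cidea, Ppargc1b and Cox8b were called higher in DR against Rapa, as were 578 of all tested genes. Of 5 tested mesothelium genes, Upk3b (1.29, adjusted p = 0.0198) and Upk1b (1.11, adjusted p = 0.0412) were called higher in DR against AL, beside the same 511. The others were not called: Lrrn4 (0.52), Msln (0.5) and Krt19 (-0.28). The part of these cells in the values of the skeletal muscle genes was not tested.

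The genes most like the mean level of the 6 tested genes over the 24 arrays were Hspb6, Niban1, AU020206, Tpm1, Kif5c, P2rx1, Synm and Csrp1, with Pearson's r from 0.65 to 0.79, given as a description of arrays that differ in brightness. The mean level itself was highest on AL6, at 7.25, and next highest on DR5, at 6.46. Without those arrays r was 0.58 for Hspb6, a small heat shock protein gene of muscle, 0.24 for Tpm1 and 0.02 for Synm, an intermediate filament gene. For Tnnc2 alone, r with Myh11 was 0.83 over 24 arrays and 0.14 without them.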

How the data were processed

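Per the labels' protocols, RNA from 25 mg of tissue was extracted with a Qiagen kit, made into biotinylated cRNA and hybridised to Illumina BeadChips. The deposited intensity values were background-subtracted before deposit, since 26.7% to 34.3% of an array's values lie below 0. The detection p-value of each probe was deposited beside them, per the file headers. The authors' processed score was found to be a within-array z-score of log intensity plus a constant (largest deviation 0.00207, medians -0.42 to -0.32), with the base of the logarithm unknown, and served as an alternative. Scanner software is not given in the sources used here.

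In R 4.3.3 with limma 3.58.1, neqc (offset 16) gave quantile-normalized log2 values computed from the deposited intensities. The 17165 probes with a detection p under 0.05 on 8 or more arrays entered the fit, and the brightest of a gene's probes there, by mean, stood for it. The platform annotation gave 1 symbol for 34885 probes, several for 18 and none for 10378. A single limma fit of the 24 arrays, with 21 residual degrees of freedom, gave two-sided moderated tests, adjusted by Benjamini-Hochberg over all kept probes. The code was tested on simulated data. The 95% intervals are unadjusted. Array number limits the precision, and values near background understate changes.

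The genes, lists and tests were chosen with earlier results of these data known. Named genes were the 10 members with all their probes, up to 8 called genes of the companion lists by size of change, up to 8 genes most like the members' mean, and marker genes that check the tissue. Further named genes of these lists were chosen after their values were seen.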

Additional observations from a re-analysis of the deposited data

Results flagged for a closer look

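Single arrays stood apart from the other 7 of their group, by the gap to the nearest array relative to the group's range, in 5 of 24 groups examined (8 probes in 3 groups each). By the rule's own rate, chance flags about 1 in 20 such groups, or 1.2 of 24. That rate cannot be set against the 5 found here. The probes examined were those detected on any array, Ckm was detected on AL6 alone, and many of the values lay below detection. On DR5, Tnnc2 was at 8.37, with the next DR array at 5.82. On AL6, Tnnc2 was at 10.14, with the next AL array at 6.06. AL6 also had the highest Ckm of its group, 5.77 with the next at 4.83, and the lowest Pvalb, 5.47 with the next at 6.73. On DR1, Tnni2 was at 6.06, with the next DR array at 4.99. All values are normalized log2 levels. AL6 therefore held 3 of the 5, in both directions.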

How the results depend on the processing

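The 18 changes of the 6 tested genes took 210 values under 12 other settings, of which 184 kept their direction and side of the threshold, 5 lost a call, 4 gained one and 17 changed sign. Pvalb stayed called in DR against both other groups under all 12 settings. The count for DR against AL was 1 in place of 2, with Acta1 lost, under median scaling, with no filter on dim probes (Acta1 adjusted p = 0.0734), without the arrays with high epididymis and testis markers, and, chosen after seeing the data, without AL6 and DR5 (Acta1 -1.18, adjusted p = 0.0971). The count for Rapa against AL was 0 in place of 1 under median scaling. Without 1 array at a time the counts were 1 to 3 for DR against AL, 1 to 1 for Rapa against AL and 1 to 1 for DR against Rapa. The cause was not tested. Eno3 in DR against AL was called with an offset of 50 (0.54), with array weights (0.8), with median scaling over the kept probes (0.8) and with number classes as the block (0.76), the last 2 chosen after seeing the data.

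Median scaling moved the median of all genes, to -0.28 in DR and -0.21 in Rapa relative to AL, so that Acta1 relative to it was -1.46 and -2.43. The share of calls that were higher in DR than in AL was 11.8% under median scaling and 44.4% under quantile normalization, and 39.8% and 51.5% for DR against Rapa. Counts of all called genes for DR against AL were 1150 in the fit reported, 1886 with the replicate block, and 301 (without the high-marker arrays) to 1953 (number classes as the block) over the 12 settings. For Rapa against AL they were 15, 121 with the replicate block, and 3 (median scaling) to 288 (without the high-marker arrays). For DR against Rapa they were 1123, 1765 with the replicate block, and 284 (median scaling) to 1887 (number classes). The 14 companion genes named as called for DR against AL kept their direction under 3 other scalings. Of these, Actn1, Tnnc1, Tpm3 and Upk1b lost the call under median scaling and by the authors' score, as did Cidea and Upk3b under the first and Acta2, Actb and Mylk by the second.

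Sign changes fell on uncalled values. For DR against Rapa, Tnnc2 was -0.03 under median scaling, -0.11 with array weights, -0.03 without the high-marker arrays and -0.34 without AL6 and DR5. For DR against AL, Mylpf was 0.24 with median scaling over the kept probes, 0.0019 by the authors' score, 0.01 without the high-marker arrays and 0.03 without AL6 and DR5. For Rapa against AL, Mylpf was 0.2 over the kept probes, 0.0036 by the score and 0.00081 without AL6 and DR5, while Actn3 was -0.13 and Pvalb 0.08 without the high-marker arrays. For DR against Rapa, Mylpf was 0.04 over the kept probes, 0.0043 with array weights, 0.25 without the high-marker arrays and 0.03 without AL6 and DR5. Without 1 array at a time, Mylpf ran from -0.11 to 0.0098 (DR against AL), -0.1 to 0.02 (Rapa against AL) and -0.06 to 0.04 (DR against Rapa), Tnnc2 from -0.34 to 0.21 (DR against Rapa) and Pvalb from -0.25 to 0.11 (Rapa against AL).

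With the replicate number as a block, 2, 1 and 1 of the tested genes were called in the 3 comparisons, as without it, and no call changed. Whole arrays correlated with each other at 0.846 to 0.983. Departures of same-numbered arrays of different groups from the common levels correlated at -0.069 to 0.553 over 24 pairs, 19 of them over 0.1. In 10 of 24 pairs the own number was the best of the 8 arrays of the other group. A chip or slide block was not run, since no chip is given in the sources used here. Dim signal limits 8 of the 10 genes: each was undetected on at least 8 arrays.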
